A study of Homo sapiens with 12 samples.

Results

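The genes described here are 9 of the 25141 genes in the count table: DUSP4, DUSP5, DUSP6, SPRY2, SPRY4, SPRED1, SPRED2, ETV4 and ETV5. They were chosen by name, as genes that ERK signalling induces and whose products restrain or relay that signalling, and each was found by the Ensembl identifier that GENCODE pairs with its symbol. The choice was made with earlier results of these data known, so the numbers of members that passed describe these libraries and are not an independent test. The cells were HOS, an established human osteosarcoma line, grown with more or less CIN85, an adaptor protein encoded by SH3KBP1 that binds the ubiquitin ligase CBL and takes part in receptor endocytosis. upCIN85 was a pool of cells, not a clone, selected with geneticin after transfection of the pRc/CMV2-Rukl plasmid, which drives full-length CIN85 from a CMV promoter, and Mock was made in parallel with the empty plasmid. Knockdown used several siRNAs to CIN85 given together (siCIN85), with a non-targeting siRNA as its control (siNeg). Each of the 4 groups had 3 RNA-seq libraries, and since the labels do not tie them to separate cultures, P-values measure the spread between these libraries, which may be technical.

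In the ERK cascade, activated growth factor receptors load RAS with GTP, RAS recruits RAF kinases to the membrane, RAF phosphorylates MEK, and MEK phosphorylates ERK. Active ERK in turn raises transcription of genes that damp the cascade: dual-specificity phosphatases (DUSP) strip the activating phosphates from ERK and related kinases, and Sprouty and SPRED proteins act at the membrane on the steps around RAS and RAF. The PEA3 factors ETV4 and ETV5 are ETS-domain transcription factors whose genes are relieved from the repressor CIC when ERK is active, and transcripts of these genes are widely read as a measure of ERK pathway output in tumour cells.

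The knockdown was visible in the targeted gene. SH3KBP1 had 85.5, 87.2 and 82.6 CPM (counts scaled to library size with TMM factors) in siNeg replicates 1, 2 and 3 and 3.88, 8.96 and 9.77 CPM in siCIN85, a log2 fold change (log2FC) of -3.51 (SE 0.208, edgeR adjusted P = 5.09e-08). P-values are from edgeR's quasi-likelihood test, adjusted over all genes tested, and a gene passed where the adjusted P was under 0.05. In Mock it had 76.6, 82.8 and 73.0 CPM and in upCIN85 71.0, 90.0 and 82.8 CPM, which overlap (edgeR adjusted P = 0.887). The libraries count tags near the 3′ ends of transcripts, and whether the plasmid's transcript carries the 3′ end of the gene is not given in the sources used here, so this value does not check the upCIN85 label. The paper measured CIN85 protein in the resistant pools by western blot and reports the full-length form as overexpressed. Total counts were 5334731 to 6049458 in the Mock and upCIN85 libraries and 3540641 to 4174860 in the siRNA libraries. Of 8 markers of osteoblast-type mesenchymal cells, COL1A1, SPARC, VIM and FN1 were abundant in every library, while ALPL, the bone alkaline phosphatase, stayed at 0 to 3.76 CPM. Between these lay COL1A2 (18.8 to 212 CPM), RUNX2 (7.23 to 38.8 CPM) and TWIST1 (13.3 to 32.7 CPM). The summed marker level was 2246 to 2832 CPM in siNeg and 1585 to 2133 CPM in siCIN85, which do not overlap, and 2232 to 2734 in Mock and 2294 to 3140 in upCIN85. COL1A1 (655 to 768 CPM in siNeg, 337 to 481 in siCIN85) and COL1A2 (46.7 to 53.6, 18.8 to 23.5) were lower without overlap. ALPL was higher without overlap (0 to 0.5, 0.578 to 1.06), and SPARC, VIM, RUNX2, TWIST1 and FN1 overlapped. The share of all genes lower without overlap is not reported here. Among 10 markers of other cell types, PTPRC, CD3E and ALB had at most 1 count in any library, but the epithelial genes EPCAM (24.6 to 61.2 CPM) and CDH1 (12.8 to 34.2 CPM) were present in all. CD14 (0.68 to 2.02 CPM) and CDH5 (0.578 to 6.12 CPM) also had counts in every library, at lower levels. The summed level of these 10 was 52.54 to 67.19 CPM in siNeg, 48 to 61.79 in siCIN85, 55.87 to 60.68 in Mock and 74.31 to 90.27 in upCIN85. The Mock and upCIN85 sums do not overlap, although EPCAM and CDH1, the most abundant of the 10, each overlap between those groups. The part of either marker list in the results was not tested, and in bulk RNA a change in the share of cells and a change in RNA per cell cannot be told apart.

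Promoter sequences were read for the members that RefSeq lists in the table used here (GRCh38.p14, 250 bases before to 50 after the start): 8 windows of 5 members, DUSP6, SPRY2, SPRY4, SPRED1 and SPRED2, and none for DUSP4, DUSP5, ETV4 and ETV5. The following windows are shown because DUSP6 and SPRY2 are members that rose in siCIN85 in the fit that pairs same-numbered libraries. SPRED2 is shown as a member that did not pass in that fit. All are on the minus strand and written 5′ to 3′ along the gene. Capitals mark a searched motif. In DUSP6 these are the letters TGAATGA, searched for CIC, starting at base -133. In SPRED2 they are the CRE letters TGACGTC read on the opposite strand, starting at base 29. SPRY2 held no searched motif. The DUSP6 window lies inside the gene as GENCODE bounds it and inside the antisense gene AC024909.2, the SPRY2 window lies upstream of the GENCODE gene, and the SPRED2 window spans the GENCODE 5′ end.
DUSP6, chr12:89352452-89352751: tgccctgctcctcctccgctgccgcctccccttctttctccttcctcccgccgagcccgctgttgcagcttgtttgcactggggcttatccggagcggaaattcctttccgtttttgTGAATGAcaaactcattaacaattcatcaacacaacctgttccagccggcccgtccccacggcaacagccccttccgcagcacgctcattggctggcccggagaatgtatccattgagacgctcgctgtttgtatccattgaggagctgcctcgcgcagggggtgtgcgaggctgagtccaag
SPRY2, chr13:80341077-80341376: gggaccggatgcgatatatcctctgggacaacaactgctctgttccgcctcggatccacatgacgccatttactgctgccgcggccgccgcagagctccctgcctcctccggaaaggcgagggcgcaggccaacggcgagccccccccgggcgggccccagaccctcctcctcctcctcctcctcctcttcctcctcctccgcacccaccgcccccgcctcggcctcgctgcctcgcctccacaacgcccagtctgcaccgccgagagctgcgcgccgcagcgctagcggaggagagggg
SPRED2, chr2:65432550-65432849: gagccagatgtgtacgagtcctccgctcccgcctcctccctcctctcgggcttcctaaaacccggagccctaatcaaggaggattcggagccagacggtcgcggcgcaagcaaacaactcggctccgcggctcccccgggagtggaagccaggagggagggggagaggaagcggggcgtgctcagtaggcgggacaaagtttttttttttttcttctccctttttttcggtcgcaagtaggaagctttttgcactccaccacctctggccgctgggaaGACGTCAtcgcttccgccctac

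With both strands searched, TGAATGA stood in 1 of the 8 windows against 4.01% of 35116 promoters of 300 bases, CCGGAAG (ETS) in 0 against 10.3%, TGACGTC (CRE) in 1 against 3.45%, and TGANTCA (AP-1) in 1, a second SPRED2 window, against 7.71%. A match says only that these letters occur in the window, and other spellings of these motifs were not searched. The CIC, CRE and AP-1 motifs share their first letters, but no match of one lay on a match of another.

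Of the 9 genes, 8 passed the filter on low counts and were tested, and SPRY4 did not. In siCIN85 against siNeg, the nuclear phosphatase genes DUSP4 and DUSP5 and the PEA3 gene ETV4 rose, by 3.01-, 2.53- and 2.48-fold. With the replicate number as a block, a term for each same-numbered pair of siRNA libraries, whose deviations from the group means correlated, DUSP6 and SPRY2 rose as well, so that 5 of the 8 members tested passed. Without the block 3 of 8 passed, against 0.59% of all 12542 genes tested that were called higher and 0.454% called lower, and with it 5 of 8, against 1.53% and 1.89%. A block in both experiments gave 6 of 8, ETV5 added, against 3.51% of all genes called higher, and DESeq2 without a block gave 4 of 8 (DUSP4, DUSP5, DUSP6 and ETV4), against 1.22%. SPRED1 and SPRED2 had log2FC near 0, and no member fell. In upCIN85 against Mock, 0 of 8 members passed in edgeR or DESeq2, and 1, SPRED1, had an unadjusted P under 0.05. With a block in both experiments 0 passed as well, and 3 had an unadjusted edgeR P under 0.05: SPRED1, DUSP5 (log2FC -0.40) and ETV4 (-0.48). Of all genes tested, edgeR called 1.23% in that comparison, DESeq2 2.5%, and edgeR with the block in the knockdown 4.35%. That block pairs no Mock or upCIN85 library, and acts on this comparison only through the spread estimated over all 12 libraries. The median log2FC of the 8 members was 0.87 in siCIN85, beside -0.0053 over all genes tested, and -0.20 in upCIN85, beside 0.0072. The mean level was highest in siCIN85 for 7 of the 9 members and lowest in upCIN85 for 5 of them. For each of those 5 the upCIN85 libraries overlap those of the next group. The share of all genes with such an order was not computed.

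**Figure D1:**
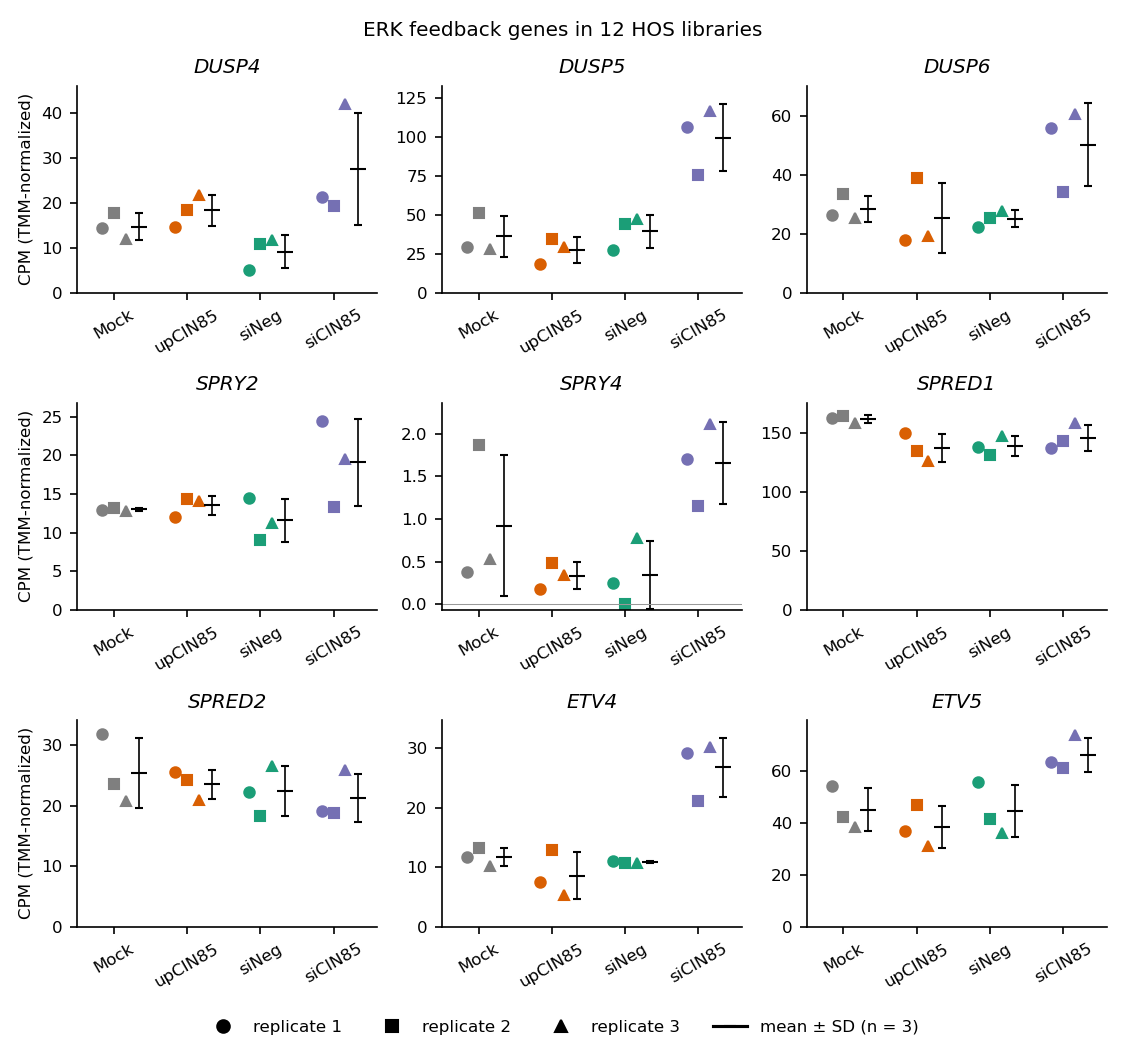
TMM-normalized CPM of the 9 genes (vertical axes, linear, each panel on its own scale) in the Mock, upCIN85, siNeg and siCIN85 groups; points are libraries, with the shape giving the replicate number, and bars are mean ± SD (n = 3). The siCIN85 points of DUSP5, ETV4 and ETV5 lie above every point of the other groups, while in DUSP6 the lowest siCIN85 point (34.4 CPM) lies below the highest upCIN85 point (39.1 CPM).

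Among the phosphatases, DUSP4 (ENSG00000120875, chr8:29333064-29350668, minus strand) encodes a nuclear phosphatase of ERK, JNK and p38. It had 5.0, 10.8 and 11.7 CPM in siNeg replicates 1, 2 and 3 and 21.4, 19.4 and 42.0 CPM in siCIN85. Every siCIN85 library was above every siNeg library, although the siNeg value of replicate 1 rests on 20 counts and the siCIN85 value of replicate 3 stands well above the other two. The log2FC was 1.59 (SE 0.316, edgeR adjusted P = 0.0253), a 3.01-fold rise with a 95% interval of 1.90 to 4.78. With the replicate block it was 1.57 (SE 0.238, edgeR adjusted P = 0.00221).

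DUSP4 had 14.3, 17.8 and 11.9 CPM in Mock and 14.7, 18.5 and 21.8 CPM in upCIN85. These libraries overlap, with a log2FC of 0.32 (SE 0.287, edgeR adjusted P = 0.666) and a 95% interval of the fold from 0.820 to 1.89. Ordered by mean, siCIN85 (27.6 ± 12.5 CPM, SD, n = 3) stood above upCIN85 (18.3 ± 3.54), Mock (14.7 ± 2.97) and siNeg (9.16 ± 3.63). The libraries of neighbouring groups in that order overlap, except those of Mock and siNeg.

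DUSP5 (ENSG00000138166, chr10:110497838-110511544, plus strand) encodes a nuclear phosphatase that acts on ERK and anchors it there. In siNeg it had 27.2, 43.7 and 47.1 CPM, and in siCIN85 106.5, 75.2 and 116.7 CPM. No siCIN85 library came near the siNeg range. DUSP5 rose by a log2FC of 1.34 (SE 0.259, edgeR adjusted P = 0.0252), or 2.53-fold (95% interval 1.73 to 3.70), and with the replicate block the log2FC was also 1.34 (SE 0.242, edgeR adjusted P = 0.00636).

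In Mock, DUSP5 had 29.5, 51.1 and 27.7 CPM, and in upCIN85 18.2, 34.3 and 29.2 CPM. The ranges overlap and replicate 2 was the highest library of both groups. The log2FC was -0.41 (SE 0.264, edgeR adjusted P = 0.513; 95% interval of the fold 0.513 to 1.11). By mean the order was siCIN85, siNeg, Mock and upCIN85, and only siCIN85 was clear of its neighbour.

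DUSP6 (ENSG00000139318, chr12:89347232-89353271, minus strand) encodes a cytoplasmic phosphatase that is selective for ERK. It had 22.2, 25.4 and 27.9 CPM in siNeg and 56.1, 34.4 and 60.7 CPM in siCIN85, with replicate 2 the lowest siCIN85 library but above all of siNeg. Without the block the log2FC of 1.01 (SE 0.262, edgeR adjusted P = 0.0714) did not pass, and with it DUSP6 rose by 0.98 (SE 0.246, edgeR adjusted P = 0.0348), 1.97-fold with a 95% interval of 1.38 to 2.82. DESeq2 without a block called it too (adjusted P = 0.0142). The antisense gene AC024909.2 overlaps the 5′ part of DUSP6 by 2257 bases, away from its 3′ end.

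In Mock DUSP6 had 26.5, 33.6 and 25.3 CPM, and in upCIN85 17.8, 39.1 and 19.2 CPM. Replicates 1 and 3 of upCIN85 were below every Mock library and replicate 2 above them, which left a log2FC of -0.16 (SE 0.256, edgeR adjusted P = 0.822; 95% interval of the fold 0.614 to 1.30). The mean of siCIN85 (50.4 ± 14.0 CPM, SD, n = 3) exceeded those of Mock (28.5 ± 4.50), upCIN85 (25.4 ± 11.9) and siNeg (25.2 ± 2.82), and these 3 groups overlap.

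Of the Sprouty genes, SPRY2 (ENSG00000136158, chr13:80335976-80340951, minus strand) encodes an inhibitor of receptor tyrosine kinase signalling that also binds CBL. Its siNeg libraries had 14.5, 9.04 and 11.2 CPM and its siCIN85 libraries 24.5, 13.3 and 19.5 CPM. The groups overlap, since replicate 2 of siCIN85 was below replicate 1 of siNeg, yet within each replicate number siCIN85 was the higher one. The log2FC of 0.73 (SE 0.223, edgeR adjusted P = 0.12) did not pass without the block. With it SPRY2 rose by 0.71 (SE 0.172, edgeR adjusted P = 0.0291), 1.64-fold with a 95% interval of 1.28 to 2.11, whereas DESeq2 with the block on the 6 siRNA libraries gave an adjusted P of 0.28.

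Between the plasmid groups SPRY2 overlapped, with 13.0, 13.2 and 12.8 CPM in Mock and 12.1, 14.4 and 14.1 CPM in upCIN85. The log2FC was 0.056 (SE 0.21, edgeR adjusted P = 0.934), and the 95% interval of the fold ran from 0.765 to 1.41. All neighbouring groups overlap in the order siCIN85, upCIN85, Mock and siNeg.

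SPRY4 (ENSG00000187678, chr5:142310427-142326455, minus strand), a further Sprouty inhibitor, was close to the detection limit and did not pass the filter on low counts over all libraries. It had 1, 0 and 3 counts in the siNeg libraries and 7, 4 and 8 in siCIN85, 4 against 19 in sum, and the siCIN85 libraries were all above the siNeg libraries. The ratio of the sums, scaled to library size with TMM factors, was 4.99 with a 95% interval of 1.66 to 20.2. In Mock it had 2, 11 and 3 counts and in upCIN85 1, 3 and 2, a ratio of 0.358 (95% interval 0.115 to 0.963), and 11 of the 16 Mock counts came from replicate 2. These intervals cover counting error only and not the spread between libraries. SPRY4-AS1 overlaps SPRY4 on the opposite strand by 1163 bases at its 5′ end.

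SPRED1 (ENSG00000166068, chr15:38252326-38357249, plus strand), whose product brings the RAS GTPase-activating protein neurofibromin to the membrane, had 138.2, 130.7 and 147.1 CPM in siNeg and 136.9, 142.6 and 157.9 CPM in siCIN85. The libraries overlap and differ little, with a log2FC of 0.072 (SE 0.1, edgeR adjusted P = 0.772) and a 95% interval of the fold from 0.908 to 1.22. In Mock it had 162.7, 164.2 and 158.0 CPM, and in upCIN85 149.8, 134.5 and 126.1 CPM. All 3 upCIN85 libraries were below the Mock libraries, as in 11% of all genes tested, and the log2FC of -0.24 (SE 0.0979) had an unadjusted edgeR P of 0.0249 and an adjusted P of 0.256. The siNeg libraries of SPRED1 were also below those of Mock.

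SPRED2 (ENSG00000198369, chr2:65310851-65432637, minus strand), which encodes another membrane inhibitor of RAS to RAF signalling, had 22.2, 18.3 and 26.6 CPM in siNeg and 19.2, 18.8 and 25.9 CPM in siCIN85. The log2FC was -0.070 (SE 0.2, edgeR adjusted P = 0.901; 95% interval of the fold 0.711 to 1.28). It had 31.8, 23.6 and 20.7 CPM in Mock and 25.5, 24.2 and 20.9 CPM in upCIN85 (log2FC -0.10, SE 0.184, edgeR adjusted P = 0.848). All groups next to each other in mean overlap.

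The PEA3 gene ETV4 (ENSG00000175832, chr17:43527844-43579620, minus strand) encodes an activator of genes for migration and matrix breakdown. It had 11, 10.8 and 10.7 CPM in siNeg and 29.1, 21.1 and 30.1 CPM in siCIN85. The siNeg libraries lay close together, and every siCIN85 library was well above them. ETV4 rose by a log2FC of 1.31 (SE 0.251, edgeR adjusted P = 0.0251), 2.48-fold with a 95% interval of 1.72 to 3.58, and by 1.30 with the replicate block (SE 0.245, edgeR adjusted P = 0.00819). The gene lies within DHX8, which runs on the opposite strand and covers its 3′ end, and the strand setting of the counting is not given in the sources used here, so reads of both cannot be told apart.

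ETV4 had 11.7, 13.2 and 10.2 CPM in Mock and 7.52, 12.9 and 5.27 CPM in upCIN85. Replicates 1 and 3 of upCIN85 were below the Mock libraries and replicate 2, which was also the highest upCIN85 library for DUSP6, was within their range. The log2FC was -0.44 (SE 0.255, edgeR adjusted P = 0.454; 95% interval of the fold 0.507 to 1.07).

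ETV5 (ENSG00000244405, chr3:186046308-186110318, minus strand), the other PEA3 factor measured here, had 55.7, 41.5 and 36.2 CPM in siNeg and 63.3, 61.3 and 73.7 CPM in siCIN85. The siCIN85 libraries were all higher, but the log2FC of 0.57 (SE 0.183, edgeR adjusted P = 0.141; 95% interval of the fold 1.14 to 1.94) did not pass, nor did that of 0.58 with the block in the knockdown (edgeR adjusted P = 0.084). In Mock it had 54.4, 42.4 and 38.4 CPM and in upCIN85 36.9, 46.9 and 30.9 CPM, which overlap (log2FC -0.23, SE 0.18, edgeR adjusted P = 0.598). DGKG overlaps the 5′ part of ETV5 on the same strand by 4651 bases, and how shared reads were assigned is not given in the sources used here.

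**Figure D2:**
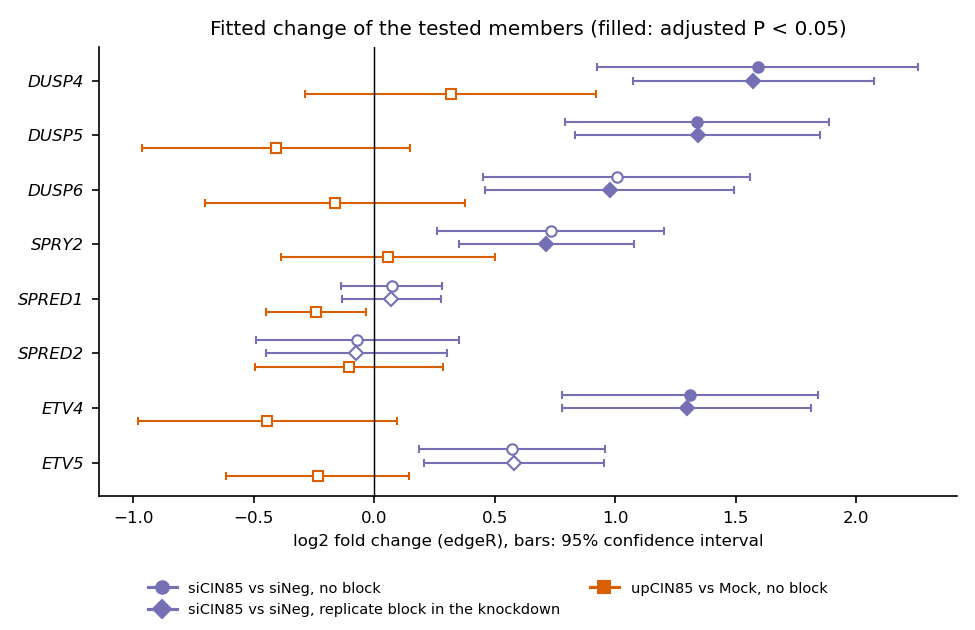
Fitted log2FC of the 8 tested genes (horizontal axis) with 95% confidence intervals, for siCIN85 against siNeg without (circles) and with (diamonds) the replicate block and for upCIN85 against Mock (squares); filled symbols have an edgeR adjusted P under 0.05. DUSP4, DUSP5 and ETV4 are filled in both siCIN85 fits, DUSP6 and SPRY2 with the block only, and every square is open.

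Counting libraries rather than fits, 5 of the 8 tested members (DUSP4, DUSP5, DUSP6, ETV4 and ETV5), and SPRY4 beside them, had all siCIN85 libraries above all siNeg libraries, against 9.91% of the genes tested. Within same-numbered libraries 6 of the 8, those 5 and SPRY2, were higher in siCIN85 in all 3 pairs, against 22.4% of the genes tested. The size of the rise varied from pair to pair. DUSP4 was 4.27, 1.80 and 3.58 times as high in siCIN85 in pairs 1, 2 and 3, and DUSP5 3.91, 1.72 and 2.48 times. DUSP6 followed with 2.52, 1.35 and 2.18 times and ETV4 with 2.65, 1.96 and 2.82 times. SPRY2 had 1.69, 1.47 and 1.75 times. Pair 2 gave the smallest ratio for these 5 genes, 1.35 to 1.96 times, while for ETV5 the ratios of 1.14, 1.48 and 2.04 were smallest in pair 1. SH3KBP1 itself was at 0.0454, 0.103 and 0.118 times its siNeg level in pairs 1, 2 and 3.

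**Figure D3:**
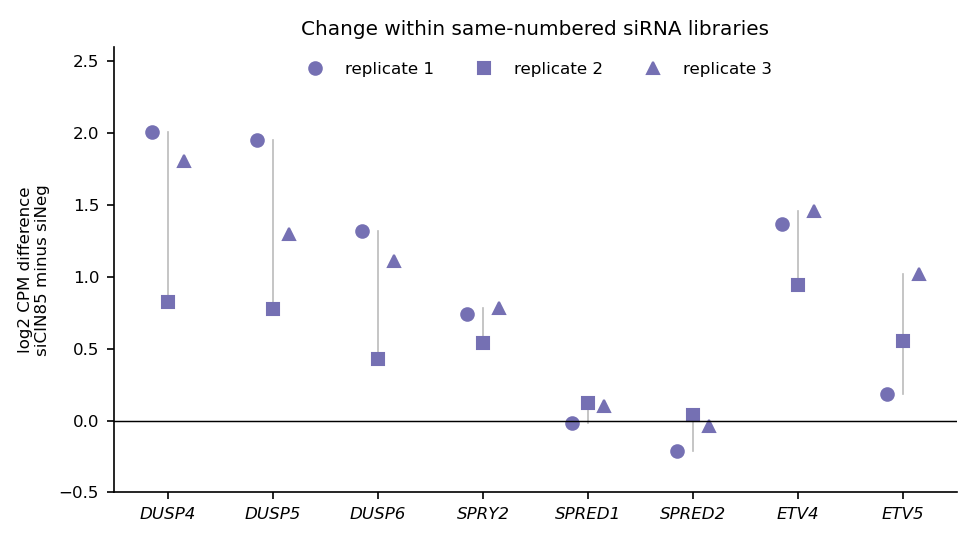
Difference in log2 CPM, siCIN85 minus siNeg, within same-numbered libraries for the 8 tested genes; points are the 3 pairs, grey lines span their range, and the horizontal line marks no difference. The points of DUSP4, DUSP5, DUSP6, SPRY2, ETV4 and ETV5 lie above 0 in all 3 pairs, and those of SPRED1 and SPRED2 lie around 0.

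The calls in siCIN85 depended on single libraries of the siRNA groups. Without the block, 0 members passed when siNeg replicate 1, siNeg replicate 2, siCIN85 replicate 1 or siCIN85 replicate 3 was left out, and 5 passed without siCIN85 replicate 2. The calls over all genes moved in the same way, from 131 to 17, 13, 9 and 14 in the first 4 omissions and to 362 without siCIN85 replicate 2. Across these and the other single-library omissions the log2FC stayed at 1.15 to 1.80 for DUSP4, 1.13 to 1.49 for DUSP5 and 1.21 to 1.44 for ETV4, with edgeR adjusted P up to 0.128. With the block, 0 members passed without pair 1 or without pair 3, and 4 passed without pair 2, while the calls over all genes went from 429 to 9, 82 and 218.

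The change in upCIN85 against Mock was then set against that in siCIN85 against siNeg, which share no library. A difference can come from the knockdown change alone, and no member passed in upCIN85 against Mock. The difference between the changes was -1.75 for DUSP5 (SE 0.37, edgeR adjusted P = 0.0331) and -1.75 for ETV4 (SE 0.358, edgeR adjusted P = 0.0304) on the log2 scale, and these 2 of the 8 members passed, against 0.686% of all genes with a negative difference that passed. With the block in the knockdown, where this share was 1.74%, DUSP4 passed too, with -1.26 (SE 0.319, edgeR adjusted P = 0.0432). For DUSP6 (-1.17, edgeR adjusted P = 0.134), SPRY2 (-0.68, adjusted P = 0.323) and ETV5 (-0.81, adjusted P = 0.144) the difference was negative but did not pass. The numbers of members that passed ranged from 0 to 4 with 1 library left out, and were 0 without Mock replicate 2, upCIN85 replicate 1 or 3, siNeg replicate 1 or 2, or siCIN85 replicate 1 or 3, 1 without Mock replicate 1 or 3 or siNeg replicate 3, and 4 without upCIN85 replicate 2. Over all genes 122 differences passed with all libraries, 33 to 103 in the other omissions and 341 without upCIN85 replicate 2.

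Between the control groups, siNeg against Mock, 0 of the 8 members passed in edgeR or DESeq2, against 0.526% and 1.66% of all genes, and 2, DUSP4 and SPRED1, had an unadjusted P under 0.05. DUSP4 was 0.623 times as high in siNeg (95% interval 0.389 to 0.998, edgeR adjusted P = 0.399) and SPRED1 0.858 times (0.743 to 0.991, edgeR adjusted P = 0.371), and for both all siNeg libraries were below all Mock libraries, as in 9.94% of all genes tested. The control groups differ in transfection, selection and depth, which cannot be told apart.

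Further lists of the pathway were read in the same fits. Of 11 related DUSP, SPRY, SPRED and ETV genes, 8 were tested and 0 passed in siCIN85 with or without the block, with 1 at an unadjusted P under 0.05 and a median log2FC of 0.16, beside -0.0053 over all genes tested. In upCIN85, where 1.23% of all genes passed, 1 of the 8 passed. With the block in the knockdown, which pairs no Mock or upCIN85 library, 3 did, against 4.35% of all genes. DUSP1, a nuclear phosphatase induced by stress and growth factors, fell from 79.6 ± 19.4 to 40.1 ± 6.38 CPM (SD, n = 3; log2FC -0.99, edgeR adjusted P = 0.0418). The related DUSP2 and DUSP8, which encode further MAP kinase phosphatases, had log2FC of -1.15 and -0.83 (edgeR adjusted P = 0.0817 and 0.0659) and passed in the fit with the block in the knockdown (adjusted P = 0.0117 and 0.0179). In siCIN85 these genes had log2FC of -0.033, 0.32 and -0.076.

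Of 28 genes of the cascade and its regulators, all tested, 1 fell in siCIN85 and 0 rose, against 0.454% and 0.59% of all genes, and the median log2FC was -0.03, beside -0.0053 over all genes. The gene that fell was MAP3K8, a kinase that activates MEK, which went from 11.6 ± 4.50 to 4.31 ± 0.0755 CPM (log2FC -1.42, edgeR adjusted P = 0.0253). With the block ERRFI1, an inhibitor of the EGF receptor, rose by 0.50 (edgeR adjusted P = 0.0459). In upCIN85 CBL, the ubiquitin ligase that binds CIN85, fell from 158.5 ± 14.5 to 109.6 ± 9.33 CPM (log2FC -0.53, edgeR adjusted P = 0.0204). MAP3K8 (log2FC -1.0) and the related ligase gene CBLB (1.14) did not pass without a block (edgeR adjusted P = 0.0648 and 0.0599). They passed with the block in the knockdown (edgeR adjusted P = 0.0195 and 0.0362), which pairs no Mock or upCIN85 library. MAP3K8 thus had a negative log2FC in both comparisons.

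Of 14 other genes that ERK induces, 13 were tested and 2 rose in siCIN85, against 0.59% of all genes, with a median log2FC of 0.44, beside -0.0053 over all genes. CCND1, which encodes cyclin D1, went from 199.6 ± 12.8 to 330.3 ± 26.3 CPM (log2FC 0.73, edgeR adjusted P = 0.0324). PLAUR, the urokinase receptor gene, went from 34.7 ± 10.3 to 89.5 ± 39.2 CPM (log2FC 1.37, edgeR adjusted P = 0.0306). With the block FOSL1, an AP-1 subunit gene, rose too (0.99, edgeR adjusted P = 0.024). In upCIN85 0 of the 13 passed without the block in edgeR, with 4 at an unadjusted P under 0.05. Without it JUNB (-0.53) and EPHA2 (-0.55) had edgeR adjusted P of 0.0817 and 0.0697. In the fit with the block in the knockdown, which pairs no Mock or upCIN85 library, they passed (edgeR adjusted P = 0.0438 and 0.0148).

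**Figure D4:**
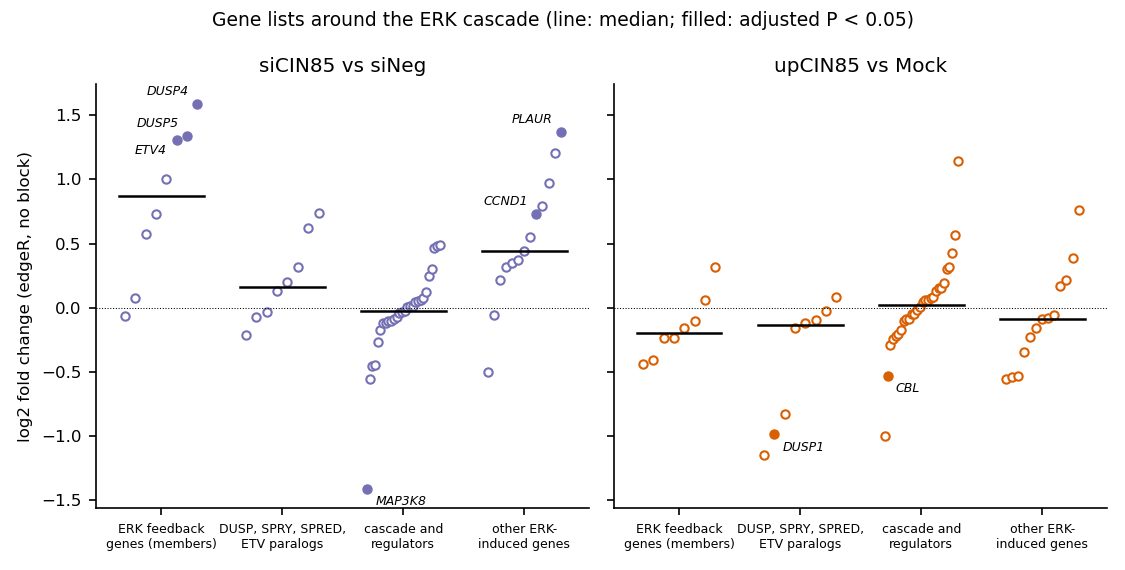
Log2FC without a block of the tested genes of 4 lists (8 members, 8 paralogs, 28 cascade genes, 13 other ERK-induced genes), in siCIN85 against siNeg on the left and upCIN85 against Mock on the right; each point is a gene, lines are list medians, and filled points have an edgeR adjusted P under 0.05. The member median is 0.87 on the left and -0.20 on the right, and the cascade medians are -0.03 and 0.022.

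Likeness of profile was measured as Pearson's r of log2 CPM over the 12 libraries, which share their groups, depth and scaling. Each gene named here has the highest r, or 1 of the highest, among all tested genes outside the list. That choice favours high values, and none was tested. The gene outside the list most like each tested member had an r of 0.855 to 0.977. For the phosphatases these were MAP3K1 for DUSP4 (r = 0.91), LYPLA2 for DUSP5 (r = 0.977) and EIF2AK4 for DUSP6 (r = 0.955). SLC41A1 was most like SPRY2 (r = 0.944), PPIB most like SPRED1 (r = 0.893) and TNRC18 most like SPRED2 (r = 0.855). HHEX came nearest to ETV4 (r = 0.964) and CDCA5 to ETV5 (r = 0.906). The mean profile of the tested members was most like those of C11orf95 (r = 0.955), UBASH3B (r = 0.94), AC100861.1 (r = 0.931) and CCND1 (r = 0.929).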

How the data were processed

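RNA-seq with a 3′ end kit with unique molecular identifiers was made from 12 HOS libraries, 3 in each group. According to the submitters' processing notes the tools were FastQC, cutadapt 4.3, STAR 2.7.3a, Picard 2.25.6, MultiQC 1.10.1 and featureCounts of Subread 2.0, with GRCh38; the annotation, the strand setting and any collapsing of identifiers are not given in the sources used here. The authors deposited raw counts per Ensembl gene, without normalization. Gene names and positions came from GENCODE 29, in which 95 identifiers had no match, and promoter sequences from RefSeq (GRCh38.p14).

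Counts were tested in R 4.3.3 with edgeR 4.0.16: filterByExpr (minimum count 10, minimum total 15) kept 12542 genes, scaling was by TMM, and the quasi-likelihood model held 4 group means over the 12 libraries. Tests were two-sided, with Benjamini-Hochberg adjustment over all genes tested and a threshold of 0.05. The SE was approximated from the log2FC and its F statistic. Pairing was checked on deviations from the group means: same-numbered siNeg and siCIN85 libraries correlated at 0.353, 0.269 and 0.446, and Mock and upCIN85 libraries at 0.326, 0.227 and 0.0989. These ranges overlap. The block in the knockdown was printed beside each member because the rule for describing the members asked for it, and a block in both experiments was an alternative. Replicates of a group differed beyond counting noise (chi-square per degree of freedom 4.93 to 10.2), so none was counted as a duplicate. Alternatives were DESeq2 1.42.0, RLE scaling, other filters, a fold limit, fits of 6 libraries, blocks, and each library left out. The scripts were tested on simulated data.

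The members and lists were chosen with earlier results of these data known. The text names the 9 members, SH3KBP1, the genes of the 3 pathway lists that passed in either comparison with or without the block in the knockdown, and for likeness (log2 CPM, prior count 2) the nearest gene of each tested member and the 5 nearest to their mean, of which 1 is not reported here. The deposited counts have a precision set by library totals of 3540641 to 6049458.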

Additional observations from a re-analysis of the deposited data

Results flagged for a closer look

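The changes of DUSP5 and ETV4 differed between the overexpression and the knockdown by a test of the difference itself. A knockdown change alone can give such a difference, so it does not show a change in upCIN85. The log2FC in siCIN85 was 1.34 for DUSP5 and 1.31 for ETV4. In upCIN85 it was -0.41 and -0.44, which did not pass (edgeR adjusted P = 0.513 and 0.454). The change in upCIN85 against Mock minus that in siCIN85 against siNeg was -1.75 on the log2 scale for DUSP5 (SE 0.37, edgeR adjusted P = 0.0331) and -1.75 for ETV4 (SE 0.358, edgeR adjusted P = 0.0304). With 1 library left out the value ran from -1.95 to -1.41 for DUSP5 and from -2.18 to -1.51 for ETV4, and the difference passed in 5 of 12 such omissions for DUSP5 (edgeR adjusted P up to 0.1) and in 2 of 12 for ETV4 (up to 0.0869).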

How the results depend on the processing

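In siCIN85 against siNeg, the 3 members that passed became 5 with no filter on low counts, 5 when the knockdown alone had a replicate block, 6 when both experiments had one (ETV5 added), and 0 with the block and pair 1 or pair 3 left out. With 1 library left out they ranged from 0 to 5. DESeq2 called 4 with or without the block, and the fit of the 6 siRNA libraries 2, without DUSP4 (edgeR adjusted P = 0.0786). In upCIN85 against Mock and in siNeg against Mock, 0 passed under every alternative run. For the difference between the changes, the 2 members became 6 with no filter (SPRY4 among them) and 5 when both experiments had a replicate block, and ranged from 0 to 4 with 1 library left out. Over all genes the differences that passed went from 122 of 12542 to 554 of 25141 with no filter and 918 of 12542 with both blocks. The sign turned only for values that did not pass: SPRED2 in siCIN85 (-0.24 to 0.062; 0.0019 without siCIN85 replicate 1), in upCIN85 (-0.23 to 0.087) and in the difference (-0.16 to 0.16; 0.039, 0.11 and 0.14 without upCIN85 replicate 3, siNeg replicate 2 and siCIN85 replicate 3), and DUSP6 in upCIN85 (-0.62 to 0.031). The cause of these moves was not tested. Over all genes, 131 were called in siCIN85 and 154 in upCIN85 without a block, 429 and 545 with the block in the knockdown, 968 and 1035 with blocks in both, 298 and 311 by DESeq2, 617 and 637 with no filter, and 50 and 281 in fits of 6 libraries. At these depths SPRY4, with at most 11 counts in a library, fell below the filter in the fits of all libraries and entered the test only in some fits with libraries left out or with no filter.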
